A study of Mus musculus with 9 samples.

Results

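Id1, Id2, Id3 and Id4 are the 4 members of the mouse Id family, and they were taken by gene symbol from the 55291 genes of an RNA-seq count matrix of the main olfactory epithelium. Id2 was chosen by its lower level in Ms4a6c knockout mice than in wild-type mice of these same data, and its 3 relatives were taken with it to see whether any of them was higher where Id2 was low. The 4 genes in the Ms4a6c knockout against wild type, and Id2 between the 2 knockouts, are therefore given as a description, with errors but with no test. Their levels in the Ms4a cluster knockout did not enter that choice as knockout values and were tested, although both comparisons use the same wild-type mice. The matrix holds 9 mice labelled C57BL/6 and aged 8 to 12 weeks, 3 in each of 3 groups. The wild-type mice are described as littermate controls. The Ms4a cluster knockout mice (Ms4a cluster-/-) carry a deletion of the Ms4a gene cluster made with CRISPR/Cas9, and the Ms4a6c knockout mice (Ms4a6c-/-) carry a deletion of the single gene Ms4a6c made by homologous recombination. Neither allele is described as limited to a cell type, the number of founder lines behind each is not given in the sources used here, and which mice shared a litter is not labelled. The strain of the embryonic stem cells behind the Ms4a6c allele and the number of backcrosses are likewise not given in those sources.

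Id proteins are inhibitors of basic helix-loop-helix (bHLH) transcription factors. They have the helix-loop-helix through which such factors pair, but lack the basic region that touches DNA, so that an E protein bound by an Id protein cannot form an active pair with a lineage factor such as NEUROD1. Their genes are classical targets of bone morphogenetic protein (BMP) signalling, and in neural tissues Id proteins are known for holding progenitors back from differentiation. The olfactory epithelium makes neurons throughout life from basal cells, with bHLH activators acting in sequence along the neuronal lineage.

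The 4 genes are similar in sequence only over a short part of their coding regions, and the stretch where they are most alike is shown. The assignment of reads between members was not tested. The most alike stretch of 60 bases, found by comparing ungapped windows of the 4 GENCODE coding sequences, lies in the part that encodes the helix-loop-helix. Capitals mark the 42 positions at which all 4 genes have the same base:
Id1: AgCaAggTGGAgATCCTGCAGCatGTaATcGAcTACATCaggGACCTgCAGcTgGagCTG
Id2: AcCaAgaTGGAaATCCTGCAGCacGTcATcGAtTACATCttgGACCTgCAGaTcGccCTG
Id3: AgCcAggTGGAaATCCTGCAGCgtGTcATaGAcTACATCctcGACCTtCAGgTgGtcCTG
Id4: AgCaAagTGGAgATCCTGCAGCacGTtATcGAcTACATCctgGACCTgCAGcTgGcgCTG
Each stretch lies within 1 coding exon of genome build GRCm38, at chr2:152736587-152736646 on the plus strand for Id1, chr12:25095774-25095833 on the minus strand for Id2, chr4:136144071-136144130 on the plus strand for Id3 and chr13:48261762-48261821 on the plus strand for Id4. Within it, Id2 matched Id4 at 50 positions, Id1 at 48 and Id3 at 47, while Id1 and Id4 were the closest pair with 54. Over whole transcripts, the longest exact runs that Id2 shared with its relatives were 19 bases with Id3, 18 with Id4 and 11 with Id1. One gene outside the family, Gm6175, holds a stretch of at least 300 bases that is at least 90% identical to Id2, and it is listed at 0 in all 9 mice. At the start of Id4, 2 genes of the opposite strand overlap it, Gm49291 with 25.7 to 97.4 expected counts per mouse and A330033J07Rik with 0 to 12.3. The libraries were directional, but whether the counting used strand is not given in the sources used here, so a small part of the Id4 count could not be assigned to a strand with certainty.

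The matrix gives expected counts, the number of reads that RSEM assigned to each gene, and a mouse's counts summed to between 13954591 and 21987174. Levels below are in CPM, counts relative to library size after TMM scaling, a correction for differences in library composition. The 23225 genes with at least 10 counts over the 9 mice were compared in 1 model with edgeR's quasi-likelihood test, and a gene is called where its Benjamini-Hochberg adjusted p over all tested genes is under 0.05. All 4 Id genes passed this count filter in every genotype. Ms4a6c had 54.0, 90.3 and 81.5 expected counts in wild-type mice, 0 in each cluster knockout mouse, and 0, 2.35 and 2 in Ms4a6c knockout mice, as the labels state. A pair of libraries stood apart from the rest. In wild-type mouse 1 and cluster knockout mouse 2 the nasal gland transcript Bpifb9b took 10.4% and 10.2% of all counts, against 0.0264% to 3.28% in the other 7 libraries. Results are given with and without these 2 gland-rich libraries where they bear on a value.

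Id2, an inhibitor of E proteins also known for its need in innate lymphoid cells, was the member chosen by its difference (GRCm38 chr12:25093799-25097140, minus strand, protein-coding). Its level was 45.8, 44.0 and 44.5 CPM in the 3 wild-type mice, 48.7, 58.4 and 46.3 CPM in the cluster knockout mice, and 22.9, 22.8 and 27.0 CPM in the Ms4a6c knockout mice. The highest Ms4a6c knockout mouse was well under the lowest wild-type mouse, and the lowest cluster knockout mouse was just above the highest wild-type mouse, so the 3 groups did not overlap on this scale. Of all tested genes, 18.3% had Ms4a6c knockout and wild-type values that did not overlap and 9.86% had such cluster knockout and wild-type values. The separation of the cluster knockout from wild type depended on the scaling. By plain library size it ran from 41.1 to 54.9 CPM against 32.2 to 49.6 CPM in wild type, with the Ms4a6c knockout still apart at 24.4 to 30.3 CPM. In TPM, which divides by transcript length and by the total of each library, the gland-rich wild-type mouse 1 was at 25.4, below the 28.1 to 35.2 of the Ms4a6c knockout, and all 3 groups overlapped. The group means were 44.8 ± 0.932 CPM in wild type, 51.2 ± 6.40 in the cluster knockout and 24.2 ± 2.38 in the Ms4a6c knockout (SD, n = 3 each). The Ms4a6c knockout thus stood at -0.89 on the log2 scale relative to wild type (standard error 0.098), or 0.54 of the wild-type level. Without the gland-rich libraries the log2 fold change was -0.87, and over the 16 alternative fits it ran from -0.97 to -0.85. The raw counts behind these levels were 645, 794 and 783 in wild type, 973, 586 and 924 in the cluster knockout, and 559, 367 and 423 in the Ms4a6c knockout. In a bulk tissue, fewer cells that express a gene and less RNA per cell cannot be told apart.

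**Figure D1:**
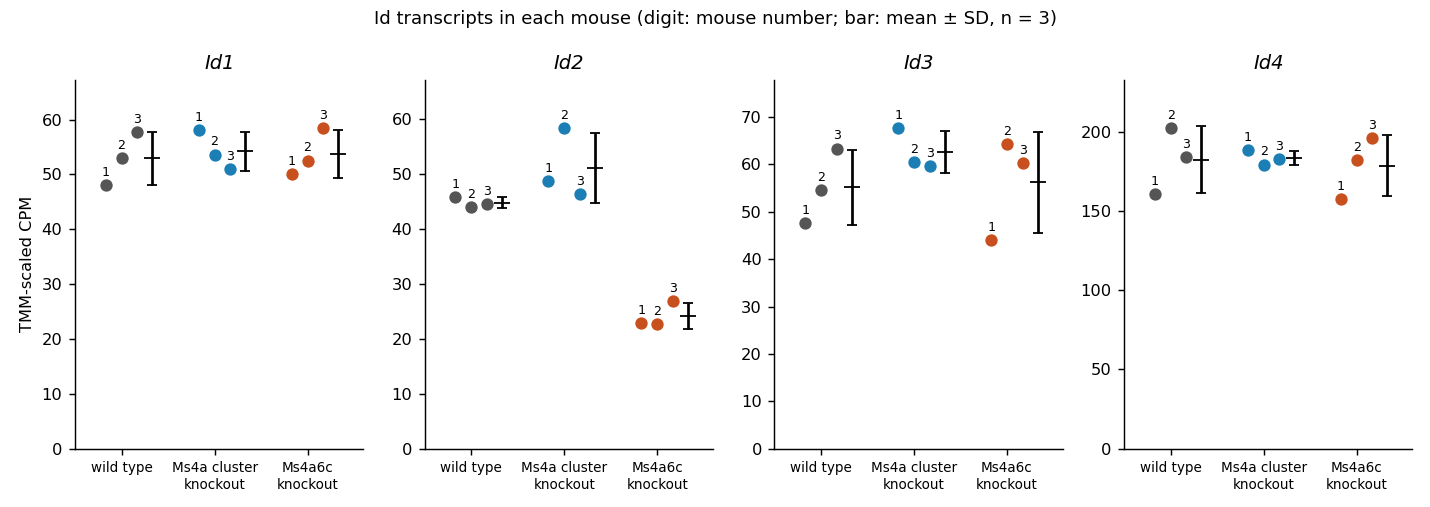
Level of each Id gene in TMM-scaled CPM (vertical axes, each starting at 0) in the 9 mice, grouped by genotype on the horizontal axis. Points are mice with their number, and bars show the mean ± SD of 3 mice. The 3 Ms4a6c knockout mice lie between 22.8 and 27.0 CPM for Id2, below every other mouse, and the groups overlap for Id4.

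In the cluster knockout, which lacks Ms4a6c along with the rest of the cluster, Id2 stood 0.19 above wild type on the log2 scale (standard error 0.096, 95% interval -0.0271 to 0.402, unadjusted p = 0.0802, edgeR adjusted p = 0.968), and 3 of 3 mice were above every wild-type mouse. The call was not made in any of the 16 alternative fits, where the smallest adjusted p was 0.728. Cluster knockout mouse 2, which is gland-rich, was the highest of the 9 mice, and without the 2 gland-rich libraries the log2 fold change was 0.10. Between the 2 knockouts, Id2 was 2.11-fold higher in the cluster knockout (log2 fold change 1.08, standard error 0.098), a difference that rests on the mice that chose Id2 and is not tested.

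Id1 is a founding member of the family (GRCm38 chr2:152736251-152737410, plus strand, protein-coding). It stood at 48.1, 53.0 and 57.7 CPM in wild type, 58.1, 53.6 and 51.0 CPM in the cluster knockout, and 50.01, 52.5 and 58.5 CPM in the Ms4a6c knockout. The 3 groups lay over each other. Its log2 fold change from wild type was 0.03 in the cluster knockout (95% interval -0.157 to 0.227, edgeR adjusted p = 1), and in the Ms4a6c knockout it was 0.02 with an interval of -0.173 to 0.21. Id1 in the Ms4a6c knockout was thus neither lower with Id2 nor higher against it by more than these bounds.

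Id3, which in many tissues is expressed together with Id1, lies on another chromosome (GRCm38 chr4:136143497-136145755, plus strand, protein-coding). Its level was 47.6, 54.5 and 63.4 CPM in wild type, 67.7, 60.6 and 59.6 CPM in the cluster knockout, and 44.1, 64.3 and 60.4 CPM in the Ms4a6c knockout. It was the most variable member, with Ms4a6c knockout mouse 1 and wild-type mouse 1 the lowest, and the groups overlapped. The log2 fold change was 0.18 in the cluster knockout (95% interval -0.132 to 0.497, edgeR adjusted p = 0.971) and 0.02 in the Ms4a6c knockout (interval -0.29 to 0.338).

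Id4 gave the largest count of the family and lies at GRCm38 chr13:48261228-48266026 on the plus strand, annotated as protein-coding. Id4 is the least typical inhibitor of the family, since it can also bind the other Id proteins. It was at 160.5, 202.3 and 183.9 CPM in wild type, 188.2, 179.2 and 182.8 CPM in the cluster knockout, and 157.6, 182.3 and 195.7 CPM in the Ms4a6c knockout. The cluster knockout and Ms4a6c knockout values both fell within or close to the wild-type range. Its log2 fold change was 0.01 in the cluster knockout (95% interval -0.205 to 0.223, edgeR adjusted p = 1) and -0.03 in the Ms4a6c knockout (interval -0.244 to 0.184).

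Of the 4 Id genes, 0 were called in the cluster knockout against wild type, where 6 of 23225 tested genes were called (0.0258%). Without adjustment 0 of the 4 had p under 0.05, and DESeq2 called 0 of the 4 as well. In the comparison of the 2 knockouts, where 0.443% of tested genes were called, Id1, Id3 and Id4 had log2 fold changes of 0.02, 0.16 and 0.04 and edgeR adjusted p-values of 0.977, 0.767 and 0.937. In the Ms4a6c knockout against wild type 0.435% of tested genes were called, and between the 2 knockouts 16% had values that did not overlap. These 2 comparisons hold the values that chose Id2, so nothing is read from its place among them. All comparisons share mice, and their values are set side by side here for that reason.

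**Figure D2:**
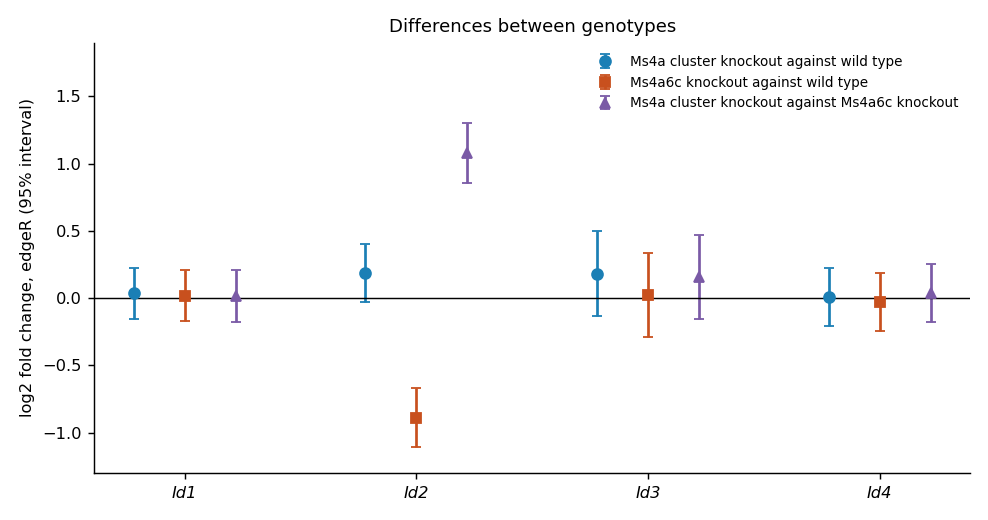
Log2 fold change (vertical axis) of each Id gene in the 3 comparisons of genotypes, with 95% intervals from the edgeR model of 9 mice. Id2 lies at -0.89 in the Ms4a6c knockout against wild type, 0.19 in the cluster knockout against wild type and 1.08 between the knockouts, and the intervals of Id1, Id3 and Id4 all cover 0.

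The level of the family as a whole was summed over the 4 genes in each mouse. The sum was 302.1, 353.9 and 349.5 CPM in wild type, 362.7, 351.9 and 339.7 CPM in the cluster knockout, and 274.7, 321.9 and 341.5 CPM in the Ms4a6c knockout. Means were 335.1 ± 28.7, 351.4 ± 11.5 and 312.7 ± 34.4 CPM (SD, n = 3 each). The cluster knockout exceeded wild type by 16.3 CPM, which was within the spread between mice (exact two-sided permutation test, p = 0.6, where 3 mice against 3 allow no p below 0.1). Without wild-type mouse 1 the difference was -0.232 CPM, and without both gland-rich libraries it was -0.44 CPM. The Ms4a6c knockout's sum differed from wild type by -22.5 CPM, of which Id2 gave -20.6 CPM.

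Whether the other 3 members made up for the missing Id2 transcripts can be read from their own sum. Id1, Id3 and Id4 together stood at 256.3, 309.8 and 304.9 CPM in wild type and 251.8, 299.1 and 314.6 CPM in the Ms4a6c knockout, with means of 290.3 ± 29.6 and 288.5 ± 32.7 CPM (SD, n = 3 each). The knockout mean differed from the wild-type mean by -1.86 CPM, so no rise was measured on this scale. In TPM the same sum was 131.5, 350.0 and 377.0 in wild type and 300.7, 347.7 and 382.3 in the Ms4a6c knockout, a difference of 57.4 between means, and the sum of all 4 genes differed by 42.0. The lowest of these wild-type values was that of gland-rich mouse 1, and the other 2 wild-type mice lay within the knockout range. The SD of this sum was larger than the size of the Id2 difference (-20.6 CPM), so a rise of that size in the sum would have been within the spread between mice. In the cluster knockout the same sum was 314.0, 293.4 and 293.4 CPM, and it differed from wild type by 9.95 CPM (exact permutation test, p = 0.8).

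**Figure D3:**
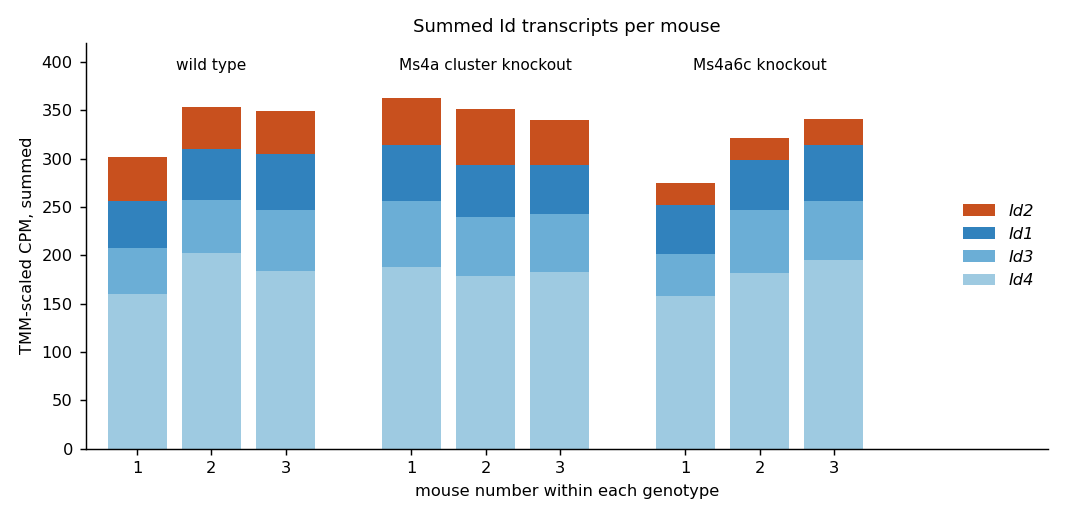
TMM-scaled CPM of Id4, Id3, Id1 and Id2 stacked for each of the 9 mice (vertical axis from 0). The Id2 segment spans 44.0 to 58.4 CPM in wild-type and cluster knockout mice and 22.8 to 27.0 CPM in Ms4a6c knockout mice, while the total of the other 3 genes runs from 251.8 to 314.6 CPM over all mice.

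A share within the family needs no scaling between libraries. Id2 made up 15.2%, 12.5% and 12.8% of all Id counts in wild-type mice, 13.4%, 16.6% and 13.6% in cluster knockout mice, and 8.34%, 7.07% and 7.89% in Ms4a6c knockout mice. The 3 Ms4a6c knockout mice were again the lowest, and the highest value of each other genotype came from its gland-rich mouse. Per count of Id1, Id2 had 0.772 to 0.953 counts in wild type, 0.840 to 1.09 in the cluster knockout and 0.433 to 0.461 in the Ms4a6c knockout. Scaling by plain library size in place of TMM brought the median log2 fold change of the 16537 genes with a mean of at least 1 CPM to 0.17 in the Ms4a6c knockout, and Id2 then stood at -0.70, with Id1 at 0.18, Id3 at 0.18 and Id4 at 0.13, so that the 3 relatives lay at about the shift itself.

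Levels of different genes can be compared only per length, and within a mouse. Per kilobase of the longest annotated transcript, Id4 with 3849 bases was no longer ahead. In wild-type mice Id1 was at 45.6 ± 4.12 CPM per kilobase, Id3 at 43.2 ± 6.18, Id4 at 47.3 ± 5.44 and Id2 at 22.8 ± 0.473 (SD, n = 3 each). Id1, Id3 and Id4 did not differ beyond their spread, since Id1 was above Id3 in 5 of 9 mice, above Id4 in 3 of 9, and Id3 was above Id4 in 4 of 9. Id2 was the lowest in all 9 mice, also with the length of the first-numbered transcript of each gene, where that of Id2 is 1270 bases in place of 1969. With that length Id1 was the highest member in all 9 mice, at 1.12 to 1.55 times Id3 and 1.08 to 1.31 times Id4, so the order of the upper 3 depends on the transcript taken. Per kilobase, Id1 was 3.68 to 3.92 times Id2 in the Ms4a6c knockout, against 1.78 to 2.20 times in wild type. In TPM, where length-scaled values of all genes share 1 fixed total per mouse, the means over 9 mice were 102.4 for Id1, 42.8 for Id2, 100.7 for Id3 and 104.4 for Id4, and the 2 gland-rich libraries were the lowest for the family, at 157 and 184 TPM in sum against 330 to 456 in the others. By CPM, Id2 was above 77.8% of tested genes and Id4 above 96.7%.

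The members' levels were also compared across mice. Over 9 mice, log2 CPM of Id1 and Id3 had a Pearson r of 0.752 (permutation p = 0.0194, adjusted over 6 pairs 0.0789) and a Spearman rho of 0.667 (permutation p = 0.0589, adjusted 0.177), and r was 0.718 without the 2 mice farthest from the Id1 median. For Id1 and Id4, r was 0.692 (permutation p = 0.0394, adjusted 0.0789) and rho was 0.717 (permutation p = 0.0369, adjusted 0.177). Without the 2 mice farthest from the Id1 median, r of this pair was 0.466. The relation of Id3 and Id4 rested on the 2 mice farthest from the Id3 median, since r went from 0.699 to -0.551 without them. No pair passed adjustment. For Id2, whose Ms4a6c knockout mice form a separate cluster, r over the other 6 mice was 0.0916 with Id1, 0.278 with Id3 and -0.169 with Id4 (permutation p from 0.554 to 0.858). These values also rested on few mice, since that of Id2 and Id3 was 0.755 over the 4 mice left without the gland-rich libraries.

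Genes were then ranked by how closely their deviations from genotype means followed those of an Id gene over the 9 mice, among 16537 genes with a mean of at least 1 CPM. Nearest to Id2 were Sec14l1 with r = 0.985, Atg16l1 with 0.985 and Spidr with 0.984. For Id1 they were Sh3bgrl3 (0.992), Rcan3 (0.991) and Tbl1xr1 (0.985), for Id3 Mxd4 (0.970), Jmjd6 (0.968) and Ephx4 (0.960), and for Id4 St6galnac4 (0.987), Marchf3 (0.984) and Gm43311 (0.980). By plain log2 CPM, which keeps the difference between genotypes, Stxbp6 (r = 0.980), Scel (0.980) and Gm43534 (0.977) were the most like Id2, and their log2 fold changes in the Ms4a6c knockout were -1.49, -1.56 and -2.88. With 9 mice and so many genes, values this high describe the ranking and carry no test.

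The genes around Id2 on chromosome 12 were read from the same model. Among its 40 nearest tested neighbours, 20 to the left and 20 to the right over 8.88 Mb, 3 were called in the Ms4a6c knockout against wild type, where 0.435% of all tested genes were. Kidins220, a scaffold of neurotrophin receptors, starts 0.122 Mb from Id2 and was at 204, 214 and 218 CPM in wild type, 198, 190 and 214 CPM in the cluster knockout and 156, 156 and 153 CPM in the Ms4a6c knockout. The Ms4a6c knockout values of Kidins220 lay below all others, at -0.45 on the log2 scale from wild type (standard error 0.0595). Adi1, an enzyme of methionine salvage 3.58 Mb away, lay on the other side of wild type, at 155, 142 and 142 CPM in the Ms4a6c knockout against 95.8, 99.4 and 96.5 CPM in wild type (log2 fold change 0.59, standard error 0.0568). Trappc12, a subunit of the TRAPP trafficking complex, was likewise higher, at 40.9, 40.0 and 41.6 CPM against 31.8, 33.6 and 31.7 CPM (log2 fold change 0.34, standard error 0.0568).

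Counting the 3 called genes, 14 of the 40 neighbours passed without adjustment (p under 0.05) in the Ms4a6c knockout, where 10.5% of all genes did. Of the 14, 10 were lower, some of them under 1 CPM. Among the 22 neighbours with a mean of at least 5 CPM, 7 passed and were lower, and 2 passed and were higher. The median log2 fold change of the 40 was -0.14, against -0.0016 for all tested genes. Rnf144a, a ubiquitin ligase 1.32 Mb from Id2, was at 18.7, 15.9 and 18.1 CPM in the Ms4a6c knockout against 22.6, 35.7 and 34.6 CPM in wild type (log2 fold change -0.82, standard error 0.181). This gene was chosen after its values were seen, as were Sox11, a transcription factor of young neurons (-0.52), and Rps7, a ribosomal protein (-0.55). The nearest tested gene on each side, Gm47701 and Gm36723, was under 1 CPM in all mice. In the cluster knockout 0 of the same 40 genes were called, 2 had an unadjusted p under 0.05 (4.93% of all tested genes had) and DESeq2 called 0, with a median of 0.023 against 0.0072 for all tested genes. The 40 genes share a chromosome with Id2 and the mice that chose it, so they are no independent support, and the part of their shared position in the Id2 value was not tested.

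**Figure D4:**
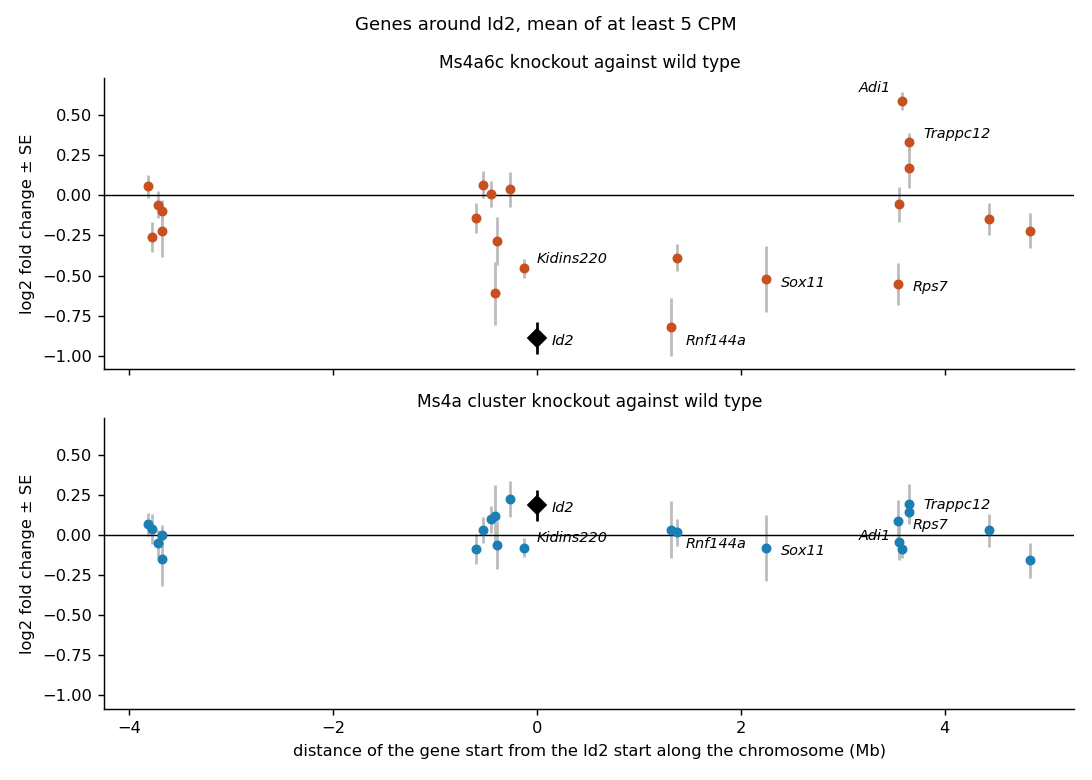
Log2 fold change from wild type (vertical axes, with standard errors) of 22 genes around Id2 with a mean of at least 5 CPM, against the distance of their start from that of Id2 in Mb, for the Ms4a6c knockout (top) and the cluster knockout (bottom). The black diamond is Id2. In the Ms4a6c knockout 15 of the 22 were below 0 and the values ran from -0.82 to 0.59, while in the cluster knockout they ran from -0.16 to 0.22.

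Around the other members, 1 of the 40 neighbours of Id1 was called in the Ms4a6c knockout, the stress-response pseudokinase Trib3. It was at 27.5, 48.2 and 42.4 CPM against 14.9, 17.1 and 15.1 CPM in wild type, all 3 knockout mice being higher. Of the 40 around Id1, 7 had an unadjusted p under 0.05 in the Ms4a6c knockout, and DESeq2 called 1. None of the 40 around Id3 or Id4 was called there, with 4 each at an unadjusted p under 0.05 and 0 each by DESeq2. Of all tested genes, 10.5% had an unadjusted p under 0.05 in that comparison and 0.435% were called. In the cluster knockout 0 of the 40 were called around each of Id1, Id3 and Id4, with 2, 3 and 3 at an unadjusted p under 0.05 and 0 by DESeq2. The share of all tested genes at an unadjusted p under 0.05 was 4.93% in the cluster knockout.

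The partners and regulators of the Id proteins were taken as lists of 83 other genes by role, of which 78 were tested. Of these, 0 were called in the cluster knockout against wild type, with 5 (6.41%) passing without adjustment, where 4.93% of all genes did, and 0 by DESeq2. The Ms4a6c knockout against wild type had 0 called and 20 (25.6%) passing without adjustment, where 10.5% of all genes did, and DESeq2 called 4. Between the knockouts 0 were called, 16 (20.5%) passed without adjustment, where 9.38% of all genes did, and DESeq2 called 2. The medians of the 78 log2 fold changes were 0.040, -0.022 and 0.021, against 0.0072, -0.0016 and 0.0070 for all tested genes. Neurog2, Tcf21, Hes3, Bmp10 and Gdf2 had too few counts to be tested.

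E proteins are the direct partners of Id proteins. Tcf4 was at 157.1 ± 5.53 CPM in wild type, 148.5 ± 6.09 in the cluster knockout and 146.2 ± 7.29 in the Ms4a6c knockout (SD, n = 3 each). Tcf12 was at 83.4, 82.7 and 81.4 CPM and Tcf3 at 40.5, 41.3 and 43.2 CPM in the same order. None of them passed without adjustment in either knockout against wild type, and the 3 log2 fold changes lay between -0.10 and 0.09 in the Ms4a6c knockout. Of the 16 tested lineage bHLH activators, which drive cells toward a fate once paired with an E protein, 1 had an unadjusted p under 0.05 in the cluster knockout and 3 in the Ms4a6c knockout. Of all tested genes, 4.93% and 10.5% had. Those genes are named after their values were seen. Myod1 passed in both knockouts, with means of 0 CPM in wild type, 0.117 in the cluster knockout and 0.0763 in the Ms4a6c knockout. In the Ms4a6c knockout Tal1 was higher (1.85 against 0.806 CPM in wild type) and Nhlh2 lower. The 3 most abundant members of this list were Olig2 (37.2, 40.9 and 39.9 CPM), Nhlh1 of newborn neurons (34.7, 38.9 and 35.7 CPM) and Ascl3 of microvillous cells (30.7, 30.9 and 31.0 CPM), and their log2 fold changes from wild type were between 0.01 and 0.17.

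Hes and Hey proteins are bHLH repressors, largely targets of Notch. In the Ms4a6c knockout 5 of 8 tested genes passed without adjustment, where 10.5% of all genes did. These included Hes2 and Hes5, named after their values were seen, which were at low levels. Hes2 had a mean of 0 CPM in wild type and 0.166 CPM in the Ms4a6c knockout, and Hes5 of 1.66 and 3.37 CPM. Hey1 was at 111.8 ± 7.03 CPM in wild type, 116.3 ± 6.29 in the cluster knockout and 128.9 ± 9.87 in the Ms4a6c knockout (SD, n = 3 each; log2 fold change 0.20 in the last, standard error 0.075). Hes1 was at 26.9, 27.7 and 31.4 CPM (log2 fold change 0.22 in the Ms4a6c knockout, standard error 0.095), and Hes6, which works against Hes1, at 40.8, 45.3 and 40.0 CPM. The median of this list in the Ms4a6c knockout was 0.21.

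BMP signalling, the pathway best known for switching Id genes on, was followed from ligand to target. Of the 12 tested ligands, 6 had an unadjusted p under 0.05 in the Ms4a6c knockout, where 10.5% of all genes did, and 0 in the cluster knockout. The 6 differed in direction, with Bmp4, Bmp6 and Bmp7 higher and Bmp1, Bmp5 and Gdf5 lower. Of these, Bmp4, Bmp5, Bmp7 and Gdf5 were named after their values were seen. Bmp6 was at 27.4, 26.8 and 26.6 CPM in wild type, 23.4, 19.8 and 25.7 CPM in the cluster knockout, and 40.0, 31.8 and 33.2 CPM in the Ms4a6c knockout. All Ms4a6c knockout mice were above and all cluster knockout mice below wild type, with log2 fold changes of 0.38 and -0.22 (standard error 0.11 each). Neither was called, and the shares of all tested genes whose values did not overlap were 18.3% and 9.86%. Bmp1, a protease that trims procollagen and is not a true BMP, was at 31.5, 29.6 and 24.8 CPM and Bmp3 at 26.9, 27.5 and 25.8 CPM.

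Among 8 receptors, 2 had an unadjusted p under 0.05 in the Ms4a6c knockout and 1 in the cluster knockout, where 10.5% and 4.93% of all genes did. The 2 in the Ms4a6c knockout, named after their values were seen, were both lower. They were Acvr1 (log2 fold change -0.369, standard error 0.084) and Bmpr1b (-0.42, standard error 0.12), and neither was called. The type II receptor Bmpr2 was at 146.0 ± 7.02 CPM in wild type, 124.6 ± 7.17 in the cluster knockout and 134.9 ± 9.89 in the Ms4a6c knockout (SD, n = 3 each; log2 fold change -0.23 in the cluster knockout, edgeR adjusted p = 0.968). Bmpr1a was at 120.5, 111.7 and 111.5 CPM, and Acvr2a at 41.3, 40.1 and 45.8 CPM. The Smads that carry the signal to the nucleus had 0 of 4 at an unadjusted p under 0.05 against wild type in either knockout, with Smad4 at 60.1, 60.5 and 61.8 CPM, Smad5 at 41.6, 40.4 and 41.9 CPM and Smad1 at 27.7, 29.2 and 25.5 CPM. Of the 11 secreted antagonists, 1 had an unadjusted p under 0.05 in each knockout, against the same shares of all genes. The most abundant were Twsg1 (170.9, 167.5 and 170.0 CPM), Nbl1 (66.2, 73.4 and 64.0 CPM) and Bmper (13.1, 12.2 and 11.5 CPM).

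Of the 6 other direct targets of the pathway, 0 had an unadjusted p under 0.05 in the cluster knockout. In the Ms4a6c knockout 2 had, where 10.5% of all genes did, and the list median was -0.093. The 2 genes, Bambi and Msx2, differed in direction. Msx2, named after its values were seen, was higher, at 5.60 CPM against 4.01 CPM in wild type (log2 fold change 0.48, standard error 0.16). Bambi, a decoy receptor, was at 16.0, 14.3 and 12.5 CPM in wild type, cluster knockout and Ms4a6c knockout (log2 fold change -0.36 in the last, standard error 0.10). The inhibitory Smads Smad6 and Smad7 were at 11.5, 12.4 and 11.6 CPM and at 7.72, 7.77 and 7.42 CPM.

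Cell cycle genes that Id proteins bind or act on included 10 tested members, with 1 at an unadjusted p under 0.05 in each knockout against wild type. Of all tested genes, 4.93% in the cluster knockout and 10.5% in the Ms4a6c knockout were. In the cluster knockout the gene was Ccne1, named after its values were seen, at 1.1 CPM against 0.658 CPM in wild type. In the Ms4a6c knockout it was Ccnd1. Ccnd1, cyclin D1, was at 106, 113 and 116 CPM in wild type, 115, 116 and 100 CPM in the cluster knockout and 98.2, 83.2 and 73.8 CPM in the Ms4a6c knockout (log2 fold change -0.39, standard error 0.10). The 3 Ms4a6c knockout mice were the lowest of the 9, and Ccnd1 was not called (edgeR adjusted p = 0.178). Of all tested genes, 18.3% had Ms4a6c knockout and wild-type values that did not overlap. Rbl2 and Rb1, of the retinoblastoma family that Id2 can bind, were at 58.0, 60.9 and 62.1 CPM and at 64.4, 58.6 and 57.9 CPM.

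**Figure D5:**
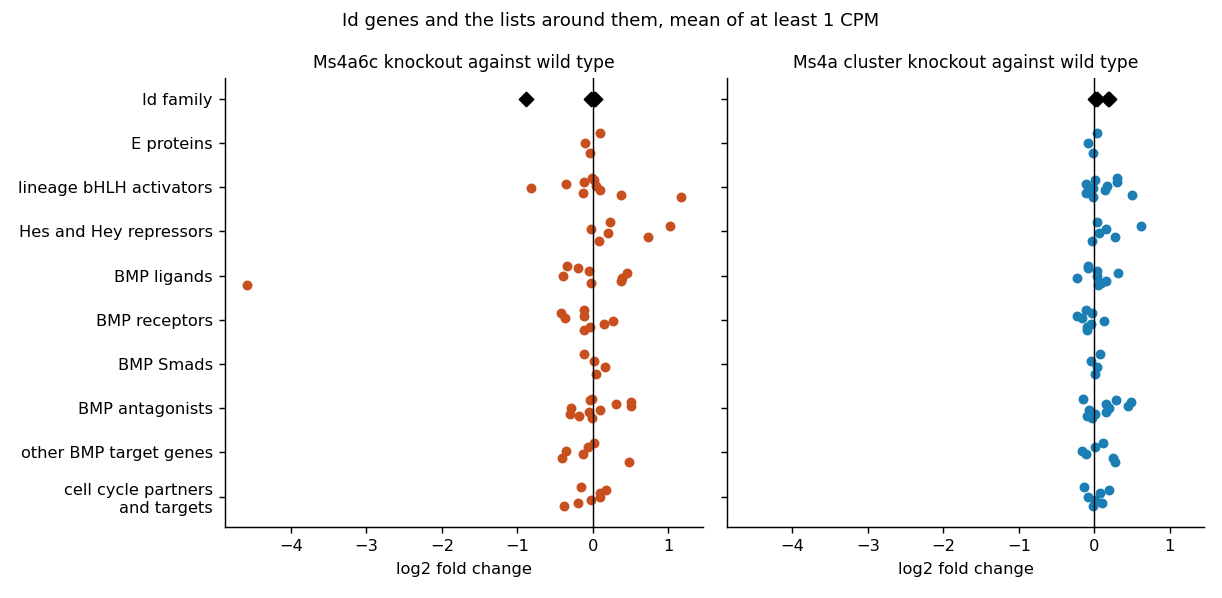
Log2 fold change from wild type (horizontal axis) of the 4 Id genes (black diamonds) and of 64 genes with a mean of at least 1 CPM in 9 role lists (rows), in the Ms4a6c knockout (left) and the cluster knockout (right). On the left the list genes run from -4.58 to 1.17, the lowest being the BMP ligand Gdf5, and on the right from -0.23 to 0.61.

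Cell type markers were read beside these values. All markers but Ncr1, of the T and innate lymphoid list, had enough counts to be tested, and those of mature olfactory sensory neurons summed to between 9844 and 12484 CPM in all 9 mice. The sum of 6 sustentacular markers was 13065 to 13900 CPM in the Ms4a6c knockout. It was 10721 to 11784 CPM in wild type and 10739 to 11831 CPM in the cluster knockout. In the Ms4a6c knockout 0 of the 6 were called, with 3 at an unadjusted p under 0.05 and 3 by DESeq2. Those 3 at an unadjusted p under 0.05 differed in direction and are named after their values were seen. Cyp2g1 (log2 fold change 0.319) and Cyp1a2 (0.255) were higher, and Ermn (-0.406) was lower. The sum mostly follows its most abundant genes, Cyp2g1, Sec14l3 and Cbr2, at 4609, 3402 and 2268 CPM in wild type. Krt18 was at 377 CPM in wild type and 379 CPM in the Ms4a6c knockout. The sum of 5 macrophage markers was 82.6 to 88.9 CPM in the Ms4a6c knockout against 94.3 to 114.3 CPM in wild type and 100.8 to 122.1 CPM in the cluster knockout, with 0 of 5 called in the Ms4a6c knockout, 1 at an unadjusted p under 0.05 and 0 by DESeq2. Pericyte and smooth muscle markers summed to 912.8 to 941.9 CPM in the Ms4a6c knockout, 810.8 to 961.2 CPM in the cluster knockout and 969.7 to 1019 CPM in wild type. The pericyte sum was thus below wild type in both knockouts, with 0 of 5 genes called and 0 at an unadjusted p under 0.05 in either. In the Ms4a6c knockout the sustentacular sum thus lay above both other groups, while the macrophage sum, like Id2, lay below them. Of all tested genes, 18.3% had Ms4a6c knockout and wild-type values that did not overlap, and 9.86% had such cluster knockout and wild-type values. The part of these sums and of the pericyte sum in the Id2 value was not tested. Endothelial markers, of a cell type in which Id1 and Id3 are usually high, summed to 51.7 to 57.2 CPM, 55.4 to 58.0 CPM and 49.3 to 56.6 CPM in the same order of groups. One marker was called, Gng13 of mature neurons, at 179, 198 and 203 CPM in the Ms4a6c knockout against 347, 371 and 359 CPM in wild type and 421, 332 and 367 CPM in the cluster knockout, and it was the only one of the 6 markers of its list with an unadjusted p under 0.05 in the Ms4a6c knockout. T and innate lymphoid markers summed to 1.99 to 3.20 CPM in the Ms4a6c knockout, 2.79 to 3.16 CPM in the cluster knockout and 1.94 to 2.27 CPM in wild type. For horizontal basal, globose basal, immature neuron, microvillous, ciliated, gland, fibroblast, glia, B cell, neutrophil and red blood cell markers the ranges of the Ms4a6c knockout and wild type overlapped, and 0 of their genes were called. Neutrophil markers had 4 of 5 and fibroblast markers 3 of 5 genes at an unadjusted p under 0.05 in the Ms4a6c knockout, and DESeq2 called 0 and 1 of them. Of all tested genes, 10.5% had an unadjusted p under 0.05 there. Named after their values were seen, S100a8 (log2 fold change 0.924), Ngp (1.37) and Camp (1.25) were higher and Ltf (-1.2) was lower. The fibroblast genes Col1a1 (-0.808), Col1a2 (-0.761) and Lum (-0.225), named likewise, were all lower. Red blood cell markers had 5 of 5 genes at an unadjusted p under 0.05 in the Ms4a6c knockout, all higher (log2 fold changes 1.07 to 1.29). Their sums were 813.8 to 2346 CPM against 665.5 to 912.6 CPM in wild type, and DESeq2 called 0 of them.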

How the data were processed

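RNA of the main olfactory epithelium of 9 mice was sequenced as directional poly-A libraries. The authors aligned the reads with STAR 2.6.1 to mm10, quantified them with RSEM 1.3.1 in the DolphinNext pipeline, and deposited the expected counts per gene of GENCODE M25, without normalization. Per the submitters' processing notes they used R 4.0.0 and DESeq2 1.30.1 for their own comparison. Groups and replicate numbers came from the sample labels. The study describes 3 mice per genotype, and each numbered sample was taken as 1 mouse. The p-values set differences against the spread between mice.

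Expected counts were rounded to whole numbers, and the 23225 genes with at least 10 counts over the 9 mice were fitted in 1 model with TMM scaling and the quasi-likelihood test of edgeR 4.0.16 (R 4.3.3), with Benjamini-Hochberg adjustment. CPM used the TMM-scaled library sizes. Sums were compared by exact permutation tests (scipy 1.17.1, Python 3.11). Totals of 13954591 to 21987174 counts per mouse set the precision, and intervals of 95% come from the edgeR fit. Intervals cover the spread between mice, and reads carry no molecular identifiers. The procedure was tested on simulated counts. GENCODE M21, on mm10 as well, gave coordinates and lengths, and transcript identifiers linked 99.6% of the genes to it. Near-identical genes were sought with blastn 2.17.0. Figures were drawn with matplotlib 3.10.9.

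The Id genes and all lists (E proteins, lineage bHLH activators, Hes and Hey repressors, BMP ligands, receptors, Smads, antagonists and other targets, cell cycle genes, and cell type markers) were chosen with earlier results of these data known. Genes named were the 4 Id genes, called genes and the 3 most abundant of each role list, the 3 genes most like each Id gene (and 3 by plain log2 CPM for Id2), and the nearest tested and the called neighbours of Id2; others are said to be chosen after their values were seen. The full set of Id2 neighbours called between the knockouts is not reported here. Trib3 and Gng13 are called genes, and Gm6175 and the genes overlapping Id4 were named for their sequence or position. The alternatives were DESeq2 1.42.0, its size factors, other count filters, each mouse left out, a replicate block, a fit of just the 2 genotypes in question, an adjusted p under 0.01, other scales for the sums, and 10 or 50 neighbours on each side. Leaving out the 2 gland-rich libraries, plain library size for single genes, and the length of the first-numbered transcript were added after seeing the data. The behavioral and imaging experiments of the study were not analysed here.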

Additional observations from a re-analysis of the deposited data

Results flagged for a closer look

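In TMM-scaled CPM, Id2 lay on opposite sides of wild type in the 2 knockouts: every Ms4a6c knockout mouse was below, and every cluster knockout mouse above, all 3 wild-type mice. Of all tested genes, 18.3% and 9.86% had values that did not overlap in these comparisons, and the cluster knockout was not called (edgeR adjusted p = 0.968). By plain library size the cluster knockout overlapped wild type, and in TPM all 3 groups overlapped. Between the knockouts the log2 difference was 1.08, cluster knockout minus Ms4a6c knockout, and it was not tested, since Id2 was chosen on the Ms4a6c knockout mice.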

How the results depend on the processing

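The log2 fold change of Id2 kept its sign in each comparison under all alternatives, and 0 of the 4 Id genes were called in the cluster knockout against wild type under any of them. The number of genes called was less stable. In the cluster knockout against wild type it was 18 with DESeq2, 3 at an adjusted p under 0.01, and 3 to 7 with 1 mouse left out (3 without wild-type mouse 2, wild-type mouse 3 or Ms4a6c knockout mouse 3). In the Ms4a6c knockout against wild type it was 345 with DESeq2, 182 with no filter, 58 at 0.01, 350 without the gland-rich libraries, and 59 to 159 with 1 mouse left out (59 without wild-type mouse 2, 60 without wild-type mouse 3, 64 without Ms4a6c knockout mouse 3, 159 without cluster knockout mouse 2). Between the knockouts it was 271 with DESeq2, 155 with no filter, 60 at 0.01, and 66 to 121 with 1 mouse left out (66 without Ms4a6c knockout mouse 2, 67 without mouse 3).

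With the replicate number as a block, 2, 71 and 75 genes were called in the 3 comparisons in the same order, and the paired difference of the summed Id level was 16.3 CPM. The correlations of same-numbered mice ran from -0.58 to 0.115, so no pairing by number was seen in them. They use deviations from means of 3 mice, and 2 of the libraries were gland-rich, so they cannot exclude a shared litter or batch. Small values near 0 changed sign. For the cluster knockout against wild type, Id1 ran from -0.0283 to 0.101 and Id4 from -0.0741 to 0.0905 with 1 mouse left out; without the gland-rich libraries they were -0.0212 and -0.0581, and Id4 was -0.00353 by plain library size. Between the knockouts Id1 ran from -0.0368 to 0.0815 and Id4 from -0.0434 to 0.11 with 1 mouse left out, and by plain library size Id1, Id3 and Id4 were -0.159, -0.0116 and -0.132. The summed level ran from -0.232 to 25.6 CPM with 1 mouse left out and was -0.44 CPM without the gland-rich libraries. The mean Id2 level was 66.3 TPM with the length of the first-numbered transcript, and 1 of the 20 genes nearest to Id2 was called in each comparison with the Ms4a6c knockout. The cause of these changes was not tested. The 3 mice per genotype limit what differences can be seen, and levels per coding length were not run.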

Other observations

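Outside the Id genes, DESeq2 called a few partners and regulators that edgeR did not, and their values are given here because they were seen, not by the naming rule. Gdf5, a ligand of the BMP family best known from joints, was at 8.39, 2.72 and 2.22 CPM in wild type, 2.25, 9.37 and 2.51 CPM in the cluster knockout, and 0.205, 0.310 and 0 CPM in the Ms4a6c knockout (log2 fold change -4.58 from wild type in the last, standard error 0.92). The highest value in each of the first 2 groups came from its gland-rich mouse, but the other mice of those groups were also above every Ms4a6c knockout mouse. Hey2, a bHLH repressor, was at 9.81, 7.21 and 9.10 CPM in wild type, 8.17, 12.5 and 11.2 CPM in the cluster knockout and 14.8, 15.4 and 12.9 CPM in the Ms4a6c knockout (log2 fold change 0.73 in the last, standard error 0.17). Nhlh2, a bHLH activator of developing neurons, was at 10.7, 15.4 and 16.0 CPM in wild type, 15.6, 10.5 and 15.3 CPM in the cluster knockout and 10, 5.83 and 7.84 CPM in the Ms4a6c knockout (log2 fold change -0.82 in the last, standard error 0.23).

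Acp1, a phosphatase among the 50 nearest tested genes on 1 side of Id2, was at 30.9, 31.3 and 32.4 CPM in the Ms4a6c knockout against 71.7, 69.6 and 68.4 CPM in wild type and 68.3, 74.8 and 59.5 CPM in the cluster knockout, and it was called in both comparisons with the Ms4a6c knockout.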
